A study of Caenorhabditis elegans with 8 samples.

Results

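The *ceh* genes of *Caenorhabditis elegans* (*ceh* stands for *C. elegans* homeobox) were followed in late embryos of an *aptf-1* mutant and of the wild type. Members were all genes with a *ceh* name and a number, except *ceh-10*, *ceh-14* and *ceh-17*, which were not included. This gave 61 genes with 86 probes, out of 19794 named genes on the array. One further gene of the same naming, *ceh-89*, had no matched probe and was not analysed here.

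Homeobox genes encode transcription factors that bind DNA through a homeodomain, a compact fold of helices. In nematodes many of them fix the identity of single neuron classes, and others act in muscle, epidermis, pharynx and the early lineage. Different neuron classes are known to carry different combinations of these factors. Families are told apart by the homeodomain and by a second domain, such as the cut domain of the ONECUT and CUX factors, the sine oculis domain or the POU domain.

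The study asked which genes depend on *aptf-1*, which encodes an AP-2 transcription factor needed for sleep and acting in the RIS neuron. The mutant embryos were *aptf-1(gk794)*, a deletion line backcrossed to N2, and the wild type was N2. There were 4 samples of each genotype, all hermaphrodite whole embryos at the pretzel stage, the folded stage late in embryogenesis, each a pool of about 3000 animals collected by hand from cultures that the labels place at 21.5°C (the general methods of the study give another temperature). The study's methods call the samples of a genotype biological samples. Each was read on 1 single-colour Agilent array, and each of the 2 slides held 2 arrays of each genotype. In such whole-embryo RNA, fewer cells of a type and less RNA per cell cannot be told apart.

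Levels below are log2 signal relative to the 75th percentile of the same array, so that 0 is a bright spot among the probes of that array. Summed levels of marker lists are the exception and are not in log2. Probes bind with different strength, so a level is compared between arrays for the same gene and not between genes. Differences are *aptf-1* minus N2.

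As a check of the labels, *aptf-1* itself stood at -1.38, -1.50, -1.82 and -1.49 in the 4 *aptf-1* samples, against 0.73, 0.25, 0.65 and 0.41 in the 4 N2 samples. The genotypes did not overlap, and the log2 difference was -2.06 ± 0.14 (SE; limma, adjusted p = 0.001872). A probe counts here as detected where the scanner software marked it well above its background. Each array detected between 79.4% and 83.1% of its probes, no spot was saturated, and pairs of arrays correlated at 0.971 to 0.996 across probes. Of the marker lists, neurons (8 of 8 genes), body wall muscle (4 of 4), pharynx muscle (3 of 3), epidermis (4 of 4) and intestine (4 of 4) were all detected on enough arrays to be tested, and no marker gene passed the test. Of the genes of earlier embryos 6 of 8 were tested, among them *end-3* with a difference of 0.28 (limma, unadjusted p = 0.0343) and *med-2* with -0.35 (unadjusted p = 0.03986), neither of them called. Of the adult germ line and yolk genes 5 of 5 were tested. N2 replicates 1 and 4 had the lowest array weights in limma, 0.411 and 0.335, against 5.49 for *aptf-1* replicate 4, so counts are also given without these 2 N2 arrays.

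Nearly the whole *ceh* family was detected, by a limit that the adult germ line and yolk genes also passed. Of the 86 probes, 82 were detected on 4 or more of the 8 arrays, which is 95.3%, beside 82% of all probes on the array. Each *aptf-1* array and each N2 array detected 81 or 82 *ceh* probes, and 80 were detected on all 8 arrays. No *ceh* probe that reached 4 arrays did so through 1 genotype alone.

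By gene, 59 of 61 could be tested, beside 17063 of all 19794 named genes on the array. The exceptions were *ceh-82*, detected on 0 of 8 arrays, and *ceh-85*, detected on 0 of 4 *aptf-1* arrays and 1 of 4 N2 arrays. Close to the limit were *ceh-51*, detected on 4 of 4 *aptf-1* arrays and 3 of 4 N2 arrays, and *ceh-7*, on 2 of 4 *aptf-1* arrays and 3 of 4 N2 arrays. The yolk gene *vit-2* and the sperm gene *msp-142*, both of the adult, passed the same limit, so detection at this limit is no sign by itself that a gene acts at this stage. A second probe of *ceh-60* and one of *ceh-92* were detected on 0 of 8 arrays, while another probe of each gene was tested.

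No *ceh* gene passed the test for a difference between *aptf-1* and N2. A call needed a change of 1.5-fold or more together with an adjusted p under 0.05, and 0 of 59 *ceh* genes met this, beside 0.041% of all 17063 genes tested (limma, Benjamini-Hochberg over all genes). By probe the count was 0 of 82, beside 0.0504% of all probes tested. At an unadjusted p under 0.05 there were 0 of 59 *ceh* genes, beside 3.23% of all genes, and 0 of 82 *ceh* probes, beside 2.98% of all probes. The smallest unadjusted p among the *ceh* genes was 0.168, for *ceh-92*. All adjusted p-values of *ceh* genes were 0.9997 or above in this fit.

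**Figure D1:**
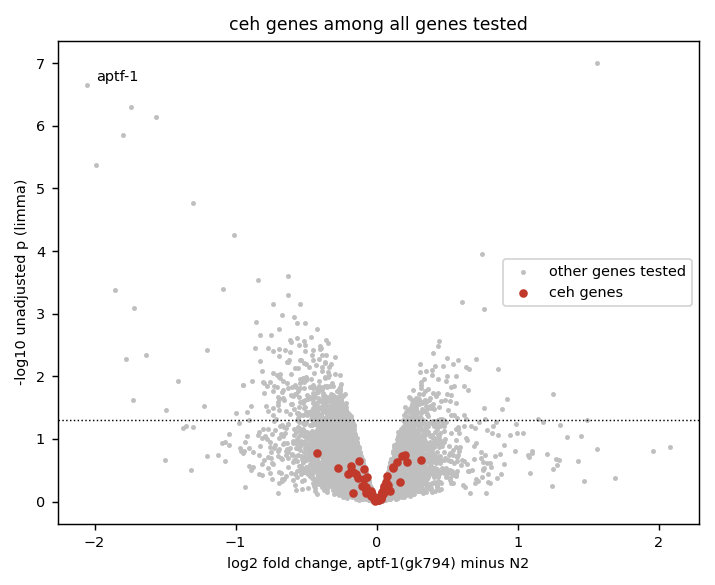
Each point is 1 gene tested, with the log2 fold change (*aptf-1(gk794)* minus N2) on the x axis and -log10 of limma's unadjusted p on the y axis. The 59 *ceh* genes are in red, the other genes in grey, and the dotted line marks an unadjusted p of 0.05. All red points lie below the dotted line and between -0.42 and 0.32 on the x axis, while *aptf-1* stands at -2.06.

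The *ceh* log2 differences had a median of 0.0135, beside -0.0188 over all genes tested, and ran from -0.42 for *ceh-92* to 0.32 for *ceh-87*. There were 32 differences above 0 and 27 below. Without regard to sign, the median size was 0.07 for *ceh* genes and 0.0918 for all genes. None of the 58 *ceh* genes with a value on every array had *aptf-1* and N2 samples that did not overlap, beside 2.1% of all genes.

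The confidence intervals give the size of change that these values leave possible in whole-embryo RNA. They do not limit a change confined to few cells, such as RIS, where other cells express the same gene. For 47 of 59 *ceh* genes (79.7%, beside 73.1% of all genes) the 95% interval of the difference lay within a 1.5-fold change in either direction. For the other 12, namely *ceh-5*, *ceh-6*, *ceh-7*, *ceh-49*, *ceh-51*, *ceh-62*, *ceh-83*, *ceh-84*, *ceh-87*, *ceh-90*, *ceh-92* and *ceh-99*, a 1.5-fold change in at least 1 direction was inside the interval, so that for them such a change was not excluded. These 12 are named for their intervals, after their values were seen.

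**Figure D2:**
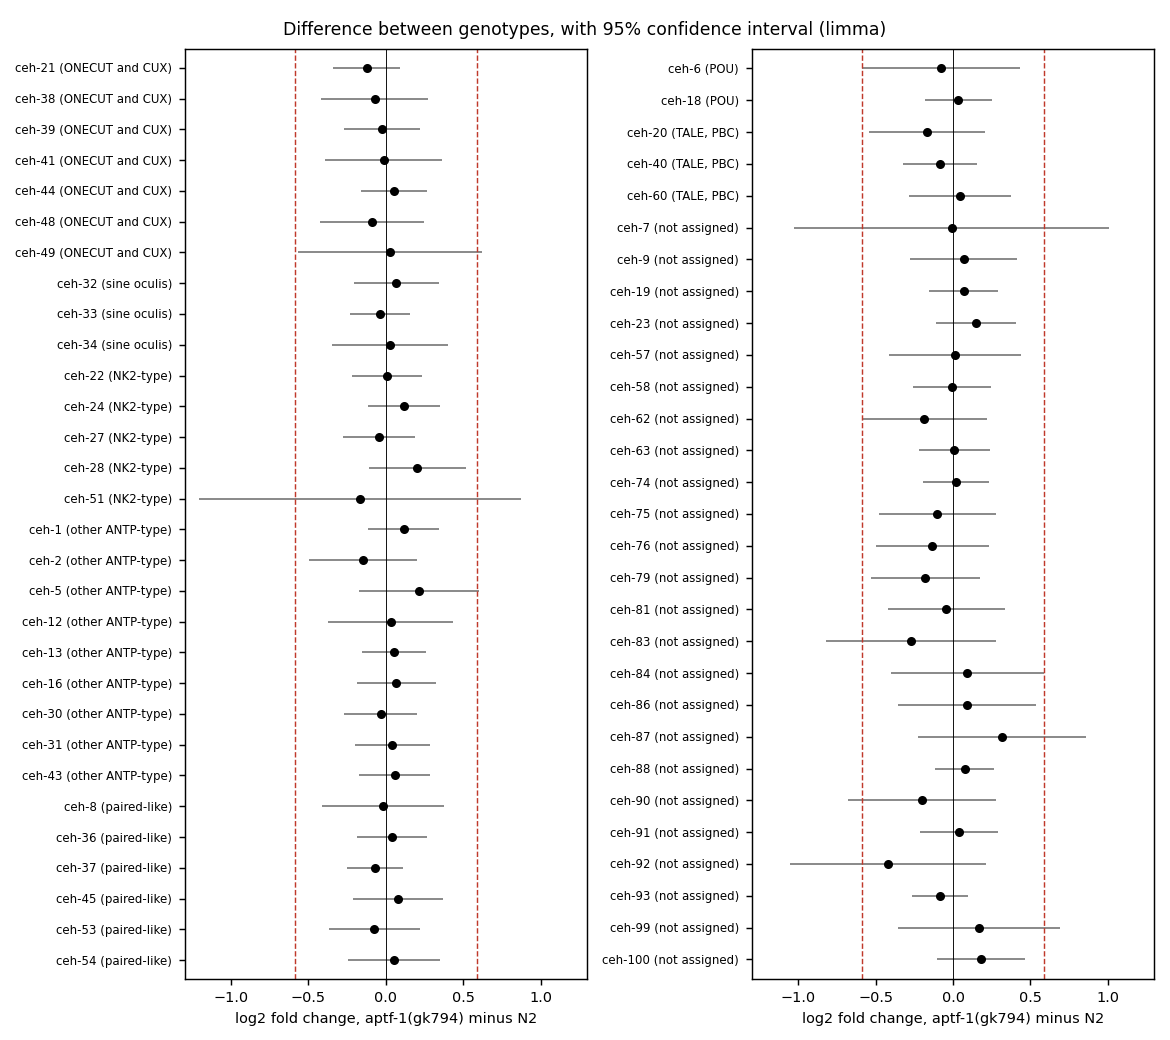
Points give the log2 fold change (*aptf-1(gk794)* minus N2) of each tested *ceh* gene and bars its 95% confidence interval from limma, with genes ordered by class and number. Dashed lines mark a 1.5-fold change in either direction. Every bar crosses 0, and the widest are those of *ceh-51* and *ceh-7*.

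Leaving out single arrays moved the count at an unadjusted p under 0.05 but not the count of calls. With N2 replicates 1 and 4 left out together, 0 of 59 *ceh* genes had an unadjusted p under 0.05. Without N2 replicate 1 the count was 1, *ceh-87* (limma, unadjusted p = 0.017), in a fit where 6.52% of all genes reached that level. Without N2 replicate 4 it was 1 as well, *ceh-99* (unadjusted p = 0.0324), beside 4.17% of all genes. None of the fits with an array left out called a *ceh* gene.

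Among the cut-domain factors, which in the worm include genes expressed throughout the nervous system, 7 of 7 were tested and 0 were called, with 2 differences above 0 and 5 below. *ceh-48*, a ONECUT gene active in all neurons, had levels of 1.20, 0.62, 0.64 and 1.01 in *aptf-1* samples, against 0.82, 1.00, 0.92 and 1.08 in N2 samples. The N2 values lay inside the *aptf-1* range, and the difference was -0.09 ± 0.15 (SE). *ceh-44*, the CUX-type member that also acts across neurons, stood at 0.04, -0.02, 0.26 and 0.06 in *aptf-1* samples, against 0.04, 0.00, -0.03 and 0.13 in N2 samples. Here *aptf-1* replicate 3 was the highest of all arrays and the other 7 overlapped.

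The broadly expressed ONECUT gene *ceh-38* read -1.09, -0.93, -0.94 and -1.10 in *aptf-1* samples, against -0.63, -0.84, -0.96 and -1.35 in N2 samples. Both the highest and the lowest value came from N2, replicates 1 and 4. The cut genes *ceh-41* and *ceh-21* are direct neighbours on the X chromosome, with 1 gene between *ceh-21* and *ceh-39*, and the last is known as an X-linked signal that counts X chromosomes in sex determination. Their log2 differences were -0.01, -0.12 and -0.02, each with an interval that includes 0.

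All 3 sine oculis-type genes with a *ceh* name were tested, and 0 were called. *ceh-34*, required for pharyngeal neurons to take on their identity, had 0.32, 0.07, 0.35 and 0.48 in *aptf-1* samples, against -0.09, 0.39, 0.18 and 0.64 in N2 samples. The means, 0.30 ± 0.17 for *aptf-1* and 0.28 ± 0.31 for N2 (SD, n = 4 each), differed by less than the spread of either genotype. *ceh-32*, which acts in development of the head, averaged 0.87 ± 0.05 in *aptf-1* samples and 0.80 ± 0.23 in N2 samples. *ceh-33*, the direct neighbour of *ceh-34* on chromosome V, differed by -0.04 (95% interval -0.24 to 0.16).

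The NK2-type genes serve mainly the pharynx and mesoderm, and 5 of 5 listed *ceh* members were tested with 0 called. *ceh-22*, the Nkx2.5 relative that switches on pharyngeal muscle genes, measured 0.26, 0.15, 0.30 and 0.18 in *aptf-1* samples, against 0.43, 0.12, 0.19 and 0.13 in N2 samples. Its difference of 0.01 (95% interval -0.22 to 0.23) was among the smallest of the named genes. *ceh-28*, which acts in the pharyngeal motor neuron M4, had -2.76, -3.22, -3.002 and -2.79 in *aptf-1* samples, against -2.94, -3.29, -3.04 and -3.32 in N2 samples. Of these, 2 *aptf-1* samples were above every N2 sample and the other 2 were not, and the difference was 0.20 ± 0.14 (SE).

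*ceh-24*, needed in sublateral neurons and vulval muscle, averaged -1.02 ± 0.15 in *aptf-1* samples and -1.14 ± 0.09 in N2 samples. For *ceh-27* the means were -1.004 ± 0.04 in *aptf-1* samples and -0.96 ± 0.17 in N2 samples. *ceh-51*, which specifies mesoderm from the MS blastomere early in embryogenesis, was near the detection limit at -7.37, -7.56, -7.36 and -7.62 in *aptf-1* samples, against -7.08, -7.66, -5.96 and -8.52 in N2 samples. N2 replicate 3 was its highest array and N2 replicate 4 its lowest, and its interval of -1.21 to 0.87 was the widest of all *ceh* genes.

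A further list held 9 *ceh* genes of the Antennapedia-like superclass that have a named vertebrate or fly relative. It need not hold all others of the superclass, since the genes left without a class below were not sorted. All 9 were tested, with 0 called, 7 differences above 0 and 2 below. *ceh-13*, the labial-type Hox gene that patterns the anterior body, read 0.98, 0.94, 1.02 and 0.98 in *aptf-1* samples, against 1.10, 0.87, 0.94 and 0.81 in N2 samples. The *aptf-1* samples kept within 0.08 of each other and lay inside the N2 range. *ceh-43*, the Distalless relative of dopaminergic neurons and anterior epidermis, had -0.28, -0.27, -0.01 and -0.14 in *aptf-1* samples, against -0.40, -0.22, -0.16 and -0.16 in N2 samples.

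*ceh-16*, the engrailed gene of the seam cells in the epidermis, stood at -0.90, -0.77, -0.76 and -0.78 in *aptf-1* samples, against -0.62, -0.98, -0.81 and -1.06 in N2 samples. It too spread more among N2 samples than among *aptf-1* samples. The epidermis markers as a list had 4 of 4 differences above 0, none of them called. Their signal, taken out of log2 and then summed, was 8.32 to 11.8 in *aptf-1* samples. In N2 samples it was 6.12 to 8.76, where N2 replicate 4 was the lowest. The brightest genes weigh most in such a sum. Whether the share of epidermis had a part in the values of *ceh-16* or *ceh-43* was not tested.

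*ceh-2*, the EMX relative of pharyngeal neurons, had -0.58, -1.20, -0.88 and -0.70 in *aptf-1* samples, against -0.42, -0.82, -0.76 and -0.76 in N2 samples, with a difference of -0.15 ± 0.15 (SE). *ceh-5*, related to vertebrate Vax genes, read -1.91, -2.43, -1.96 and -2.33 in *aptf-1* samples, against -2.23, -2.60, -2.08 and -2.58 in N2 samples. It had one of the 5 largest differences of the family, 0.21, but 2 of the *aptf-1* values fell among the N2 values (exact permutation test, two-sided p = 0.286). *ceh-12*, the HB9 gene of VB motor neurons, averaged -5.95 ± 0.19 in *aptf-1* samples and -5.98 ± 0.34 in N2 samples.

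*ceh-30*, a BarH gene that protects the male-specific CEM neurons from death, averaged -1.67 ± 0.11 in *aptf-1* samples and -1.63 ± 0.13 in N2 samples. Its neighbour and closest relative on the X chromosome, *ceh-31*, differed by 0.04 (95% interval -0.20 to 0.28). *ceh-1* averaged -4.02 ± 0.12 in *aptf-1* samples and -4.13 ± 0.12 in N2 samples over 3 probes. One of these was the only *ceh* probe of 81 with a value on every array whose genotypes did not overlap, beside 2.04% of all probes, and its difference was 0.16 (limma, unadjusted p = 0.09405).

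**Figure D3:**
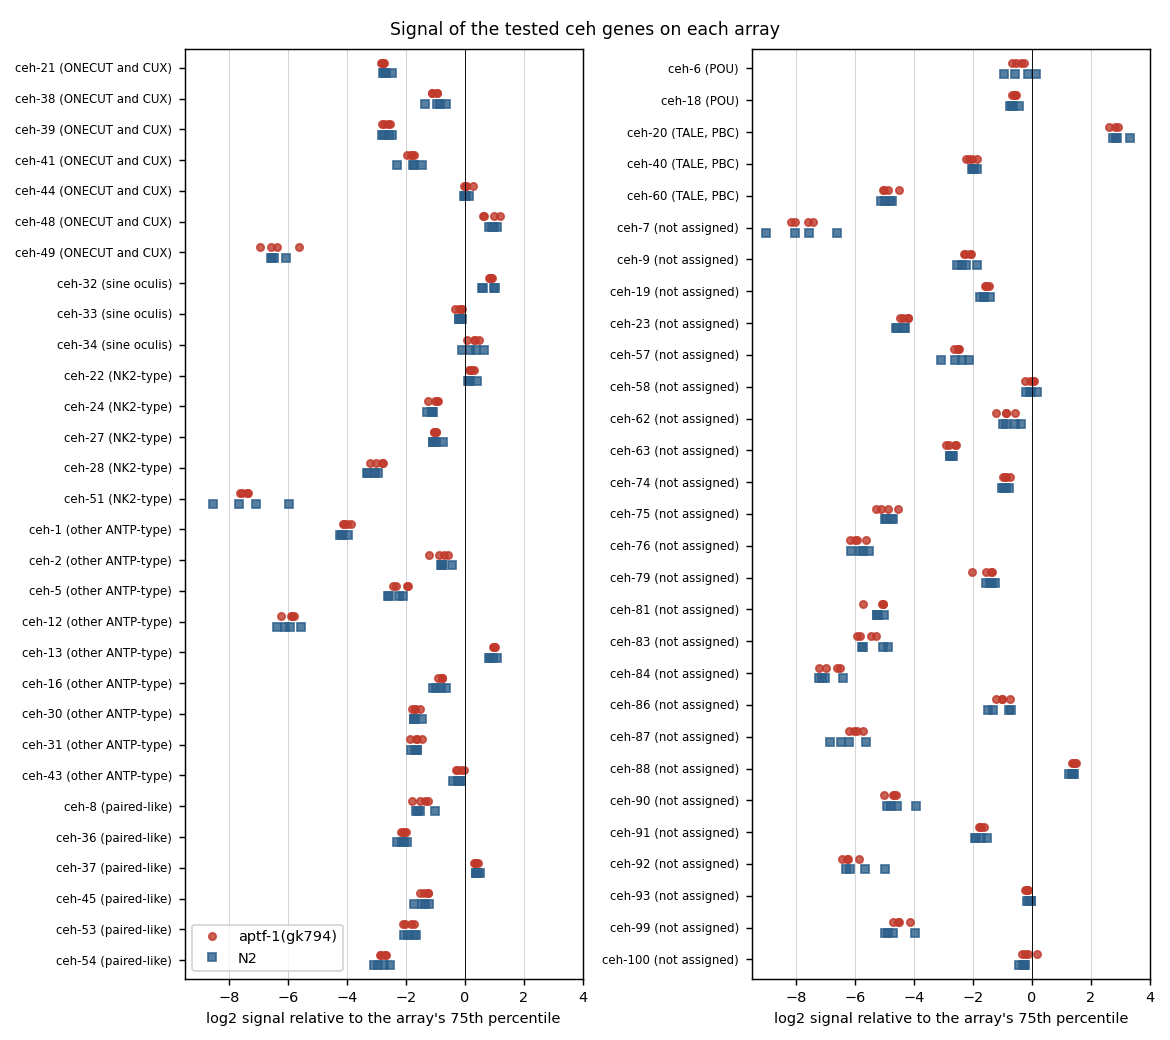
Each row is 1 tested *ceh* gene, with the level in the 4 *aptf-1(gk794)* samples as red circles and in the 4 N2 samples as blue squares, on an x axis of log2 signal relative to the 75th percentile of the array. Rows are ordered by class and gene number, levels are not comparable between genes, and red and blue points overlap in every row. *ceh-20* has 3 red points because 1 spot was left out.

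The paired-like *ceh* genes listed here had 6 of 6 members tested and 0 called, with 3 differences on each side of 0 and a range of -0.07 to 0.08. *ceh-36* and *ceh-37* are Otx-type genes that lie side by side on the X chromosome and act in different sensory neurons, *ceh-36* in AWC and ASE and *ceh-37* in AWB. *ceh-36* had -2.15, -2.05, -1.98 and -2.08 in *aptf-1* samples, against -2.30, -2.05, -2.12 and -1.95 in N2 samples. *ceh-37* had 0.35, 0.38, 0.33 and 0.44 in *aptf-1* samples, against 0.47, 0.39, 0.53 and 0.40 in N2 samples.

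For *ceh-37* only 1 *aptf-1* sample reached into the N2 range, and the difference was -0.07 ± 0.08 (SE; exact permutation test, two-sided p = 0.143, where the smallest p that 4 against 4 samples allow is 0.0286). *ceh-8*, the Rax relative expressed in the interneuron RIA, averaged -1.47 ± 0.24 in *aptf-1* samples and -1.45 ± 0.30 in N2 samples. The remaining 3 paired-like genes, *ceh-45*, *ceh-53* and *ceh-54*, differed by 0.08, -0.07 and 0.05, each with an interval that includes 0.

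Both POU genes with a *ceh* name were tested and neither was called. *ceh-6*, required in the excretory cell and in several neurons, read -0.25, -0.53, -0.66 and -0.38 in *aptf-1* samples, against -0.94, -0.13, -0.58 and 0.14 in N2 samples. The 4 N2 samples spanned 1.07 and the 4 *aptf-1* samples 0.41. *ceh-18*, which acts in gonadal sheath cells to keep oocytes arrested, averaged -0.59 ± 0.06 in *aptf-1* samples and -0.63 ± 0.14 in N2 samples over 6 probes.

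The PBC genes encode partners with which Hox proteins bind DNA. *ceh-20*, the main partner of this kind, had 2.61, 2.82 and 2.92 in *aptf-1* samples, against 3.33, 2.84, 2.88 and 2.75 in N2 samples. The spot of *aptf-1* replicate 1 was left out as an outlier. N2 replicate 1 was the highest of the 7 arrays, and the difference was -0.17 ± 0.16 (SE). *ceh-40* differed by -0.09 (95% interval -0.33 to 0.15). *ceh-60*, known for its part in yolk protein production in the adult intestine, averaged -4.86 ± 0.25 in *aptf-1* samples and -4.91 ± 0.17 in N2 samples.

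The remaining 26 genes were not put in a class here, of which 24 were tested and 0 called, with 13 differences above 0 and 11 below. *ceh-23*, a marker of the interneuron AIY, had -4.48, -4.19, -4.36 and -4.19 in *aptf-1* samples, against -4.57, -4.30, -4.61 and -4.34 in N2 samples. Of the 4 *aptf-1* values, 2 were above all N2 values, and the difference was 0.15 ± 0.11 (SE). *ceh-19*, which acts in the pharyngeal pacemaker neuron MC, averaged -1.53 ± 0.07 in *aptf-1* samples and -1.60 ± 0.14 in N2 samples.

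Of the 5 largest differences of the family, 4 belonged to genes of this group, which are named for their size alone, and that of *ceh-90* was no larger to 2 decimals than that of *ceh-28*. *ceh-92* had -6.43, -6.26, -5.86 and -6.24 in *aptf-1* samples, against -6.17, -4.97, -6.29 and -5.67 in N2 samples. Most of its difference of -0.42 ± 0.28 (SE) lay on the first slide, at -0.77, against -0.07 on the second slide. *ceh-87* read -6.02, -5.93, -5.73 and -6.20 in *aptf-1* samples, against -5.64, -6.48, -6.19 and -6.84 in N2 samples. Both genes were dim, with background-corrected intensities of 26.5 to 116 for the tested *ceh-92* probe and 23.7 to 62.1 for *ceh-87*. The median background of an array was 31.5 to 39.

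N2 replicate 1 had the highest *ceh-87* value of all 8 arrays and N2 replicate 4 the lowest, and the difference was 0.32 ± 0.24 (SE). *ceh-83* had -5.83, -5.93, -5.46 and -5.27 in *aptf-1* samples, against -5.76, -5.72, -4.89 and -5.04 in N2 samples. Both genotypes were higher on the second slide, and in a fit with slide as a blocking term *ceh-83* was the only *ceh* gene to go under 0.05 (limma, unadjusted p = 0.0318), beside 3.12% of all genes. The smallest adjusted p of the family in that fit was 0.9997. *ceh-90* stood at -4.61, -5.0, -4.71 and -4.66 in *aptf-1* samples, against -4.91, -4.79, -4.56 and -3.92 in N2 samples, where N2 replicate 4 alone was above all others.

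In 12 *ceh* genes more than 1 probe was tested, and the interval of every such probe included 0. For *ceh-18* the 6 probes ran from -0.06 to 0.14. The 4 probes of *ceh-88* ran from 0.02 to 0.13. The largest gap between probes of a gene was in *ceh-32*, with differences of -0.03, -0.03 and 0.25. *ceh-21* had one probe at -0.25 and the other at -0.0002.

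**Figure D4:**
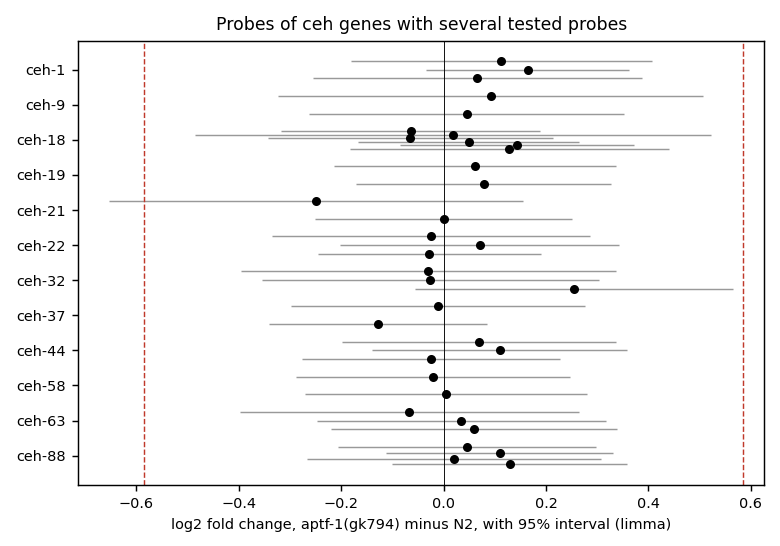
Points are single probes of the 12 *ceh* genes with more than 1 tested probe, with the log2 fold change (*aptf-1(gk794)* minus N2) and its 95% interval from limma on the x axis. Dashed lines mark a 1.5-fold change in either direction. All intervals include 0, and the probe farthest from 0 on the right is one of *ceh-32*, at 0.25.

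Several *ceh* genes are adjacent, and none of these was called. Direct neighbours on a chromosome were *ceh-81* with *ceh-82* and *ceh-83*, *ceh-57* with *ceh-58*, *ceh-34* with *ceh-33*, *ceh-41* with *ceh-21*, *ceh-30* with *ceh-31*, and *ceh-36* with *ceh-37*. Signs differed within the pairs *ceh-57* and *ceh-58* (0.01 and -0.01), *ceh-34* and *ceh-33* (0.03 and -0.04), *ceh-30* and *ceh-31* (-0.03 and 0.04), and *ceh-36* and *ceh-37* (0.04 and -0.07). Binding of a probe to a related copy was not tested.

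The family lies unevenly over the chromosomes. The X chromosome carried 16 of the 61 *ceh* genes (26.2%), beside 13.3% of all named genes on the array, and chromosome II carried 14 (23%, beside 17.2%). Chromosome IV carried 4 (6.56%, beside 16.3%). The median difference of the *ceh* genes was -0.0028 on the X chromosome and 0.0026 on chromosome II.

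Spread among N2 samples was larger than among *aptf-1* samples for most *ceh* genes. The range over 4 arrays had a median of 0.3155 in *aptf-1* samples and 0.3929 in N2 samples, and it was wider in N2 for 41 of 59 *ceh* genes (69.5%, beside 63.2% of all genes). N2 replicates 1 and 4 were the 2 extremes for 28 of 59 *ceh* genes (47.5%), beside 43.8% of all genes, so that these shares were near those of the whole array. Of the genes with this pattern, *ceh-41*, *ceh-57* and *ceh-86* were picked after their values were seen.

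*ceh-41* had -1.79, -1.95, -1.83 and -1.73 in *aptf-1* samples, against -2.29, -1.73, -1.77 and -1.46 in N2 samples. *ceh-57* had -2.47, -2.51, -2.51 and -2.64 in *aptf-1* samples, against -2.14, -2.61, -2.35 and -3.08 in N2 samples. In *ceh-86* the *aptf-1* samples read -1.01, -1.20, -0.73 and -1.0, against -0.71, -1.3, -0.78 and -1.50 in N2 samples. For *ceh-41*, as for *ceh-6* and *ceh-34*, N2 replicate 1 was the lowest array and N2 replicate 4 the highest, while for *ceh-57* the order was turned round, and in *ceh-86* N2 replicate 1 was also the highest and N2 replicate 4 the lowest.

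Marker lists differed between the same 2 arrays. The sums here were again taken on signal out of log2, so that the brightest genes weigh most. For the neuron markers the sum was 29.7 in N2 replicate 1 and 36.99 in N2 replicate 4, with 30.1 to 34.98 in *aptf-1* samples. Epidermis markers summed to 8.76 in N2 replicate 1 and 6.12 in N2 replicate 4. Intestine markers summed to 6.77 and 10.6 in the same order, with 8.55 to 10.1 in *aptf-1* samples. Single genes did not all follow their sum. In the same order, *ifb-2* of the intestine list had log2 levels of 2.14 and 3.04, with *elt-2* and *elt-7* also higher in replicate 4. For *ges-1* of that list they were -0.73 and -1.39. Of the neuron markers, *unc-64* had -2.79 and -3.81. *unc-104* and *unc-31* were also lower in replicate 4, and the other neuron markers were higher. The part of cell makeup in the spread of the *ceh* genes was not tested.

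**Figure D5:**
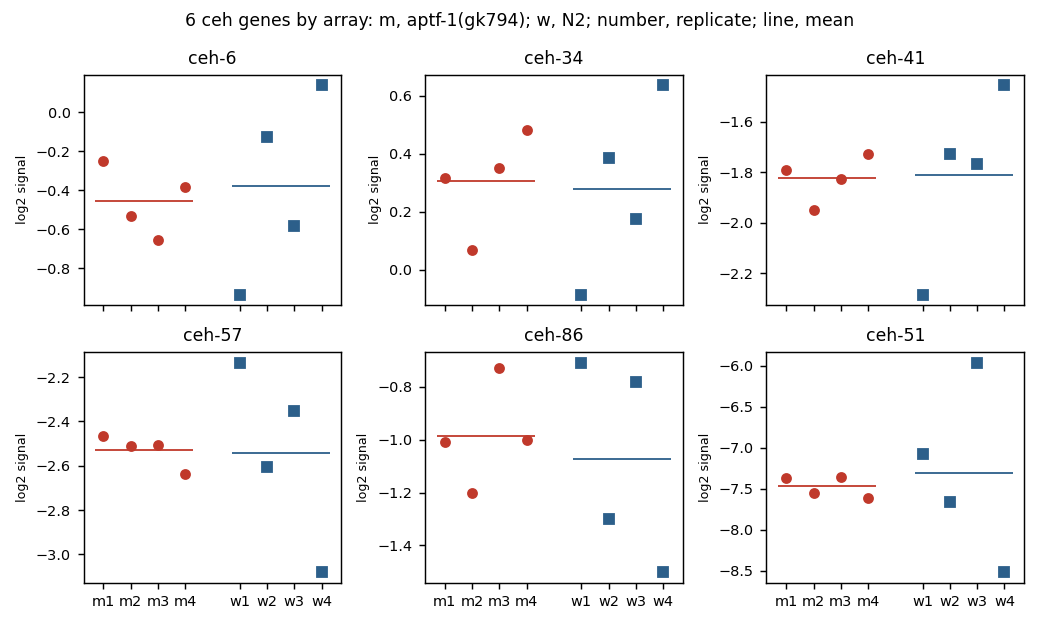
Log2 signal relative to the 75th percentile of the array (y axis, scaled for each gene) for 6 *ceh* genes in the 4 *aptf-1(gk794)* samples (m1 to m4, red) and the 4 N2 samples (w1 to w4, blue), with a line at each mean. In *ceh-6*, *ceh-34*, *ceh-41*, *ceh-57* and *ceh-86* the N2 replicates 1 and 4 are the outermost N2 points, and in *ceh-51* replicates 3 and 4 are.

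Across the 2 slides, each with its own 2 arrays of both genotypes, the *ceh* differences had a median of -0.018 on the first slide and 0.0192 on the second. For 32 of 59 *ceh* genes (54.2%) the sign on one slide was opposite to that on the other, beside 50.7% of all genes.

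Homeobox genes without a *ceh* name were read for comparison. The list held 36 genes of the HOX, LIM, paired-like and other groups, 36 of 36 were tested and 0 were called, and 0 had an unadjusted p under 0.05, beside 3.23% of all genes. Their median difference was 0.0129, beside 0.0135 for the *ceh* genes, with a range of -0.19 to 0.27. Of the 34 with a value on every array, 2 had genotypes that did not overlap, beside 2.1% of all genes, namely *pros-1* and *lim-6*, which are named after their values were seen.

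*lim-6*, a LIM homeobox gene of RIS and other GABAergic neurons, had -2.88, -2.91, -2.8522 and -2.89 in *aptf-1* samples, against -2.8495, -2.72, -2.69 and -2.70 in N2 samples. The highest *aptf-1* value, -2.8522, and the lowest N2 value, -2.8495, were almost equal, so the genotypes only just failed to overlap for *lim-6*. Its difference of -0.14 ± 0.08 (SE) did not pass the test (limma, adjusted p = 0.9997). The 95% interval was narrow enough to lie within a 1.5-fold change for 33 of these 36 genes (91.7%), beside 47 of 59 *ceh* genes (79.7%).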

How the data were processed

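Total RNA of 4 *aptf-1(gk794)* and 4 N2 samples had been hybridized to single-colour Agilent arrays. Per the file headers, the scanner images were read with Agilent Feature Extraction (version 10.7.3.1), and in these deposited files each spot has a background-corrected intensity and marks for outliers and for signal well above background. The authors' own log2 table, whose scaling is not stated, served as an alternative. The submitters' processing notes name Agilent Feature Extraction and limma. No columns of fold changes or p-values were used.

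From the 45220 spots per array, control spots (1417) and outlier spots (62 to 188 per array) were left out. Log2 intensities were averaged per probe after the array's 75th percentile had been subtracted. Of the 35739 probes marked well above background on 4 or more of the 8 arrays, 35726 gave a test result and count as all probes tested. Gene values are means over tested probes. limma 3.58.1 in R 4.3.3 (lmFit, eBayes) compared the genotypes with Benjamini-Hochberg adjustment over all probes or all genes. An exact permutation test over all 70 assignments of arrays to genotypes was added for single genes. The fit was tested on simulated data. The number of arrays limits the precision.

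Of 43603 probes, 34266 were named through a table of the WBcel235 assembly, which was used for names, chromosomes and neighbours. Sequences were not used here. Values were printed for *ceh* genes that were called, had an unadjusted p under 0.05, did not overlap between genotypes, have textbook roles, or were among the 5 largest differences, 31 genes in all. *ceh-41*, *ceh-57* and *ceh-86* were added after their values were seen, and other *ceh* genes are given by difference or interval alone. Members and lists were chosen with earlier results of these data known. Alternatives were other scalings, normexp background correction (offset 50), other filters and thresholds, outlier spots kept, a trended robust fit, array weights, the slide or replicate number as a block, the deposited log2 table, the brightest probe of a gene, and each array left out.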

Additional observations from a re-analysis of the deposited data

Results flagged for a closer look

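All 59 tested *ceh* genes were screened, and in 4 of them a single array stood apart from the other 3 of its genotype by a Dixon test, in which the gap to the nearest array is divided by the whole range and compared with the critical value for 4 samples. The gap was 0.862 of the range for *ceh-16* in *aptf-1* samples, where replicate 1 had -0.90 and the others -0.78 to -0.76. It was 0.851 for *ceh-2* in N2 samples, where replicate 1 had -0.42 and the others -0.82 to -0.76, and 0.856 for *ceh-30* in N2 samples, where replicate 2 had -1.43 and the others -1.72 to -1.68. In *ceh-81* it was 0.951 in *aptf-1* samples, where replicate 1 had -5.73 and the others -5.07 to -5.04, and 0.968 in N2 samples, where replicate 4 had -5.01 and the others -5.24 to -5.23. The number of *ceh* probes well above background met the same criterion in N2 samples with a ratio of 1, since replicate 4 had 81 and the other N2 arrays had 82 each. With the other counts equal, any difference gives a ratio of 1, so this ratio does not measure the size of the gap. In all, 6 of 119 groups of values stood out in this way, the tied probe counts among them, and chance gives about 1 in 20.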

How the results depend on the processing

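The counts of called *ceh* genes and probes were 0 under every alternative run, with 0 calls without N2 replicates 1 and 4 together, an alternative chosen after seeing the data. The count of *ceh* genes with an unadjusted p under 0.05 was 1 with array weights (*ceh-28*, limma, unadjusted p = 0.0369, beside 7.33% of all genes) and 1 with the slide as a block (*ceh-83*, limma, unadjusted p = 0.0318, beside 3.12% of all genes), and ran from 0 to 1 with single arrays left out. The median difference of the family ran from -0.004 to 0.0408 with single arrays left out.

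Signs of small differences turned in several genes, and the causes were not tested. With the brightest probe of a gene, *ceh-18* was at -0.064, *ceh-22* at -0.025 and *ceh-32* at -0.030. With array weights *ceh-27* was at 0.016, *ceh-60* at -0.12 and *ceh-8* at 0.15. With normexp and the 75th percentile *ceh-22* was at -0.0063 and *ceh-36* at -0.047, and with normexp and quantile normalization *ceh-36* was at -0.031. *ceh-60* was at -0.040 with no filter, which adds its probe below background. *ceh-8* was at 0.0003 with quantile normalization and 0.0007 in the deposited log2 values. With single arrays left out, *ceh-12* ran from -0.094 to 0.17, *ceh-18* from -0.0083 to 0.10, *ceh-22* from -0.028 to 0.076, *ceh-27* from -0.085 to 0.038, *ceh-30* from -0.085 to 0.032, *ceh-32* from -0.0078 to 0.14, *ceh-34* from -0.095 to 0.15, *ceh-36* from -0.025 to 0.092, *ceh-38* from -0.21 to 0.033, *ceh-44* from -0.0084 to 0.087, *ceh-51* from -0.57 to 0.28, *ceh-6* from -0.26 to 0.094, *ceh-60* from -0.071 to 0.11, *ceh-8* from -0.095 to 0.13 and *ceh-90* from -0.32 to 0.0051.

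Samples with the same replicate number deviated together only in part, with correlations of 0.521, 0.284, -0.118 and 0.091, so the numbers were not taken as pairs. Between samples of different number the correlations ran from -0.376 to 0.233, so those of replicates 1 and 2 were the highest. With the replicate block 0 *ceh* genes were called, and 5 genes in all, against 7 without it. In that fit 4.38% of all genes had an unadjusted p under 0.05, against 3.23% without the block. The smallest of a *ceh* gene was 0.0555 (limma, unadjusted p), against 0.168. Signal near background limits *ceh-51* and *ceh-7* most. Low signal also limits others, since 16 of 59 *ceh* genes had a mean level below -4, among them *ceh-92* and *ceh-87*. Of the 59 intervals, 12 reach past a 1.5-fold change.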
